A study of Mus musculus with 12 samples.

Results

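The transferases that build glycans at the surface of mouse embryonic stem cells were followed over 5 days of Esrrb depletion. Members were chosen by symbol, with earlier results of these data known. They were all genes with a single-symbol probe set of the following families. The sialyltransferases were St3gal, St6gal, St6galnac and St8sia, and the polypeptide N-acetylgalactosaminyltransferases were Galnt and Galntl. The others were the Mgat branching enzymes, the B3gal, B4gal and B3gnt families, the Fut fucosyltransferases, Gcnt1 to Gcnt7 and Ugcg. This gave 89 of the 19938 genes measured, from 93 probe sets. A further probe set named a member together with another gene (Ccdc24 and B4galt2) and was not counted.

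Glycans are built in the Golgi by transferases that each add a sugar to the product of the enzyme before. Glycosphingolipids start with glucose on ceramide and become gangliosides when sialic acid is added. O-glycans start with N-acetylgalactosamine on serine or threonine, and N-glycans arrive as a preformed chain that is trimmed, branched and then extended. Antennae of both kinds end in galactose, sialic acid or fucose. Several surface antigens by which pluripotent cells are recognized, Lewis x among them, are such glycan ends.

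The line, Esrrb_R, is a rescue clone of AINV15 embryonic stem cells, which express the doxycycline (Dox) transactivator rtTA. In every group a short hairpin RNA silenced the endogenous Esrrb, and a GFP-tagged copy that the hairpin does not recognize was driven by a Dox-dependent promoter. Day 0 cultures received 1 µg/ml Dox, and cultures of days 1, 3 and 5 had been without it for that long, all in serum with Lif on gelatin without feeder cells. Each day had 3 biological replicates, hybridized to 12 Affymetrix Mouse Gene 1.0 ST arrays in all. No array controls for Dox or for time in culture alone, and therefore the loss of Esrrb, the removal of Dox and time cannot be told apart. All values are log2 signals, in which a difference of 1 is a doubling, and they rank arrays within a gene but not genes against each other. Because cultures were measured in bulk, fewer cells of a type and less RNA per cell cannot be told apart.

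Esrrb itself read 11.59, 11.54 and 11.63 at day 0, 9.09, 9.15 and 9.16 at day 1, 8.20, 8.07 and 8.34 at day 3, and 8.15, 8.28 and 8.13 at day 5. The medians of the arrays lay between 6.92 and 7.05. Of 8 embryonic stem cell markers, 7 were lower at day 5, with summed linear signals of 44405 to 45677 at day 0 and 28673 to 30075 at day 5. Of 9 trophectoderm markers, 5 were higher at day 5, with sums of 4608 to 5433 at day 0, 4525 to 4903 at day 1, 5366 to 5842 at day 3 and 14916 to 17043 at day 5. Of 9 endoderm markers, 5 were higher and 3 lower at day 5, with sums of 10308 to 10558 at day 0 and 7383 to 9311 at day 5, and at day 1 there were 4 higher and 0 lower, with sums of 12587 to 12790. Of 12 fibroblast markers, 0 were called at day 1, 2 were higher and 5 lower at day 3, and 1 was higher at day 5, with sums of 2718 to 3163, 2741 to 2792, 2136 to 2178 and 2615 to 3069 at days 0, 1, 3 and 5. From day 3 to day 5, 6 of them were higher and 1 lower. No marker was listed at 0, and the dimmest of the trophectoderm list was Elf5 with a mean of 5.84 at day 5. Linear sums weigh the brightest genes most, and the highest mean in the trophectoderm list was 13.12 at day 5. The part of these cell types in the changes below was not tested.

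Over the time course 58 of the 89 transferase genes changed (limma moderated F test, adjusted p under 0.05), or 65.2%, beside 45.6% of all genes. Against day 0, at the same threshold, 9 were higher and 15 lower at day 1, where 6.45% of all genes were higher and 4.48% lower. At day 3 there were 16 higher and 22 lower, beside 13.5% and 13.1% of all genes. At day 5 there were 29 higher and 15 lower, beside 17.4% and 17.6%. Lower calls thus outnumbered higher ones at days 1 and 3, and higher calls outnumbered lower ones at day 5. Of all members, 18 had their 3 arrays of day 1 entirely above those of day 0 and 24 entirely below, beside 17.7% and 12.6% of all genes. For day 3 these were 22 and 27, beside 19.8% and 19.4%, and for day 5 they were 31 and 18, beside 20.7% and 22.1%. The median change over the 89 genes stayed near 0, at -0.01, -0.01 and 0.02, as it did over all genes (0.01, 0.00 and -0.02). The 9 higher calls at day 1 became 5 on leaving out an array. This could be replicate 1 or 2 of day 0 or replicate 1 or 3 of day 1. Higher calls over all 19938 genes went from 1286 to 811, 960, 807 and 734 in these fits, in that order.

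Between days without Dox, 13 members were higher and 11 lower at day 3 than at day 1, beside 9.2% and 11.6% of all genes. At day 5, 28 were higher and 8 lower than at day 3, beside 13.0% and 12.2%. The 13 became 7 without day 1 replicate 1 or day 3 replicate 3 and 8 without day 3 replicate 2. Higher calls over all 19938 genes went from 1834 to 1380, 1411 and 1441 in these fits, in that order. The 11 became 7 without day 3 replicate 3, where lower calls over all genes went from 2317 to 1615. Standard errors of the member changes lay between 0.05 and 0.15 on the log2 scale.

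The members were set into 8 groups by the step they carry out. At day 1 glycosphingolipid steps had 0 higher and 4 lower of 15, and N-glycan branching 0 higher and 3 lower of 10. O-glycan initiation had 3 higher and 1 lower of 19. Of all genes, 6.45% were higher and 4.48% lower on that day. At day 3 the counts were 1 and 6, 0 and 3, and 3 and 4 in the same order, beside 13.5% and 13.1% of all genes. The 15.8% of O-glycan initiation genes higher at day 3 was near the share of all genes. At day 5 glycosphingolipid steps had 3 higher and 5 lower, N-glycan branching 4 higher and 4 lower, and O-glycan initiation 8 higher and 0 lower. The shares of all genes at day 5 were 17.4% and 17.6%. The antenna group was divided on each day, with 4 higher and 4 lower, 6 and 6, and 7 and 4 of 20. Differences between the steps were not tested.

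**Figure D1:**
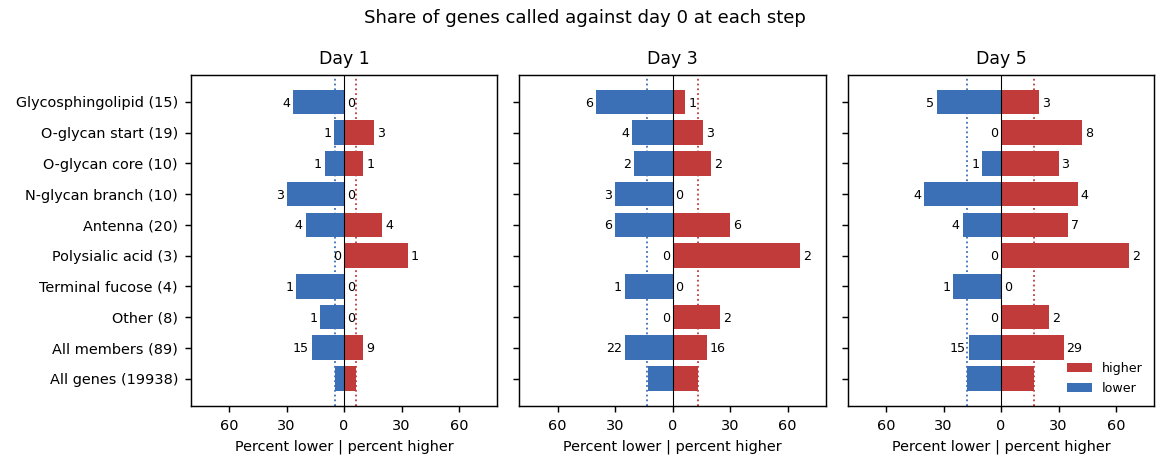
Share of the genes of each step that were called lower (blue, to the left) or higher (red, to the right) against day 0 at days 1, 3 and 5, in percent, with the number called at the end of each bar and the number measured in parentheses. Dotted lines mark the share of all 19938 genes. At day 5 the O-glycan initiation bar extends to the right alone (8 of 19), and the N-glycan branching bars are equal (4 and 4 of 10).

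**Figure D2:**
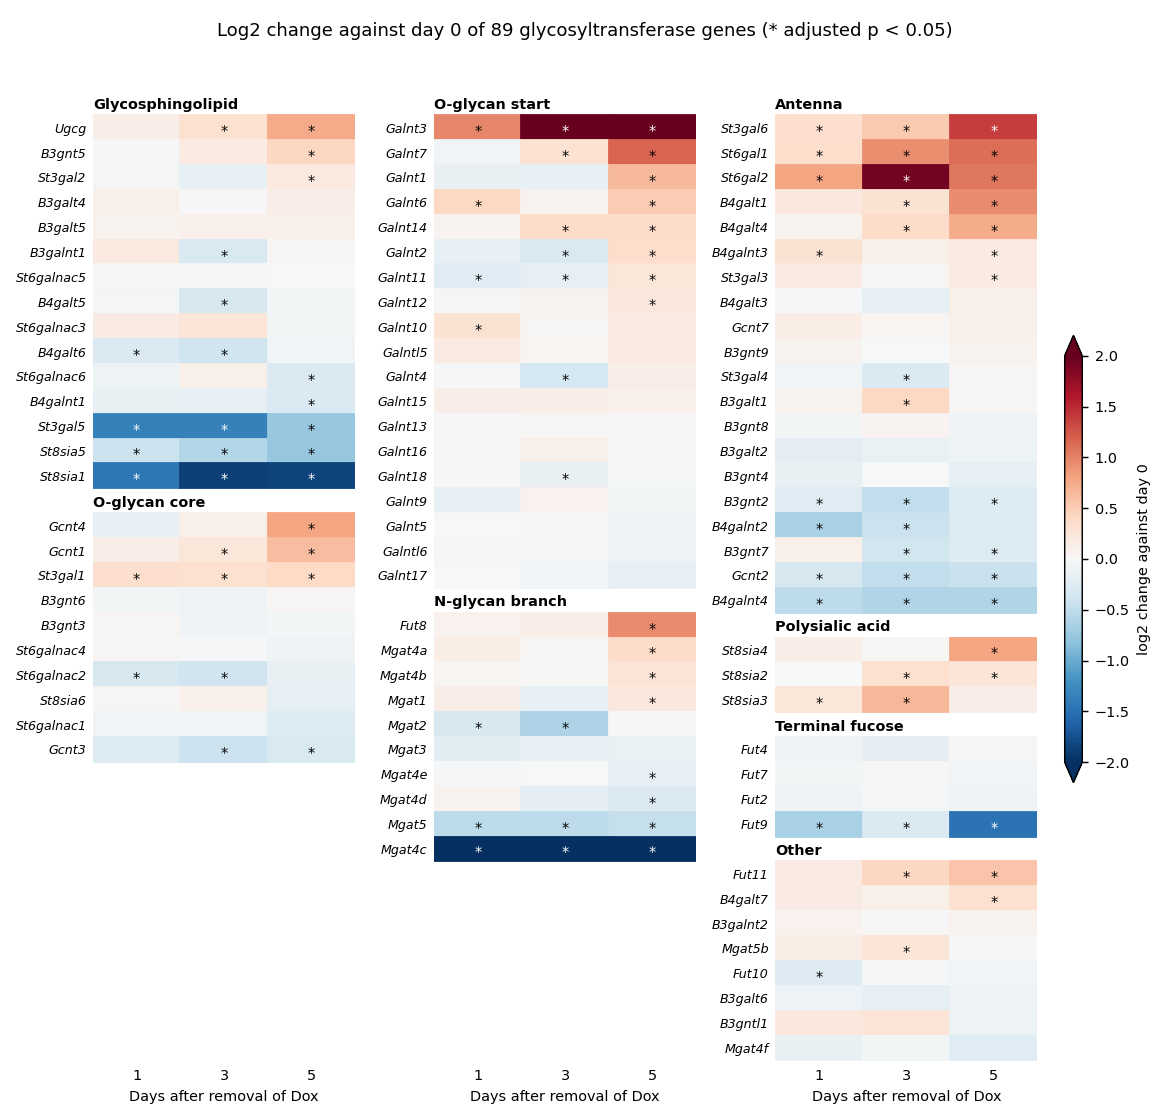
Log2 change of the mean of 3 arrays against the mean of 3 day 0 arrays for each of the 89 genes, in columns for days 1, 3 and 5. Red is higher, blue lower, the scale ends at 2 in both directions, and a star marks an adjusted p under 0.05 in the limma fit. The members that pass -1 on any day are Mgat4c, St8sia1, St3gal5 and Fut9, and those that pass 1.9 are Galnt3 and St6gal2.

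In the glycosphingolipid group St3gal5 and St8sia1 were the 2 genes that changed by at least 1 on the log2 scale, both downward. St3gal5, the GM3 synthase, which commits lactosylceramide to the ganglioside series, read 10.08, 10.10 and 10.10 at day 0, 8.72, 8.61 and 8.86 at day 1, 8.85, 8.59 and 8.77 at day 3, and 9.37, 9.30 and 9.34 at day 5. All day 0 arrays stood above all others, days 1 and 3 overlapped, and day 5 lay between. The level at day 1 was 2.57-fold lower than at day 0 (log2 change -1.36, standard error 0.07, limma adjusted p = 3.5e-07), and at day 5 it was 1.69-fold lower (-0.76, 4.0e-06 by the same test). From day 3 to day 5 it went up by 0.60 (limma adjusted p = 7.5e-05).

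St8sia1, the GD3 synthase, which adds a further sialic acid to GM3, read 8.55, 8.67 and 8.56 at day 0, 7.17, 7.20 and 7.06 at day 1, 6.75, 6.56 and 6.82 at day 3, and 6.64, 6.77 and 6.81 at day 5. Every array without Dox lay below every day 0 array, and days 3 and 5 overlapped. Its log2 changes of -1.45, -1.88 and -1.85 on the 3 days had a standard error of 0.08, the last being a 3.61-fold lower level (limma adjusted p = 2.8e-09). From day 3 to day 5 its change was 0.03 (limma adjusted p = 0.83), and the difference from St3gal5 over that interval was not tested.

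RefSeq promoters of assembly GRCm38.p6, from 250 bases before to 50 after the transcription start, are shown for these consecutive enzymes because both fell at day 1, by a similar amount. Capitals mark AGGTCA, the core of the site bound by nuclear receptors of the Esrrb type, on either strand. St8sia1 lies at chr6:142964403-142964702 on the minus strand and St3gal5 at chr6:72097358-72097657 on the plus strand.
St8sia1: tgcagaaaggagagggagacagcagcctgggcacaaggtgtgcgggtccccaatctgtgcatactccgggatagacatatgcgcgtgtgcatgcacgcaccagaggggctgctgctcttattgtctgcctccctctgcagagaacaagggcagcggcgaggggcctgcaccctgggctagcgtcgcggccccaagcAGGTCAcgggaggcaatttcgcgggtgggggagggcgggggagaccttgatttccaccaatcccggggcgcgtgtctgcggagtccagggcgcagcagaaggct
St3gal5: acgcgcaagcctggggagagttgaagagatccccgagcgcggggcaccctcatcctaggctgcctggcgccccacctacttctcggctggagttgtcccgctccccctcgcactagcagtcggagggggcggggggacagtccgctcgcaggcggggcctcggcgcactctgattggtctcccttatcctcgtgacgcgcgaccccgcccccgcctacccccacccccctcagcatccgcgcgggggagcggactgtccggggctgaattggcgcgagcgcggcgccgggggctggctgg
The St8sia1 window held 1 match and the St3gal5 window 0, with 64.7% and 72.7% G and C. AGGTCA stood in 7 of the 92 promoter windows of the 66 members matched, or 7.61%, beside 16.3% of all 32851 promoters. These were the windows of B3galt5, Galnt15, Galntl5, Galntl6, Mgat5, St6gal1 and St8sia1. The longer form TNAAGGTCA, which contains AGGTCA, stood in 1 member window (Galntl5), or 1.09%, beside 1.28% of all promoters. Both were searched on both strands, and a match is a run of letters and not a bound site.

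Of the steps before, Ugcg, which puts glucose on ceramide and opens the series, read 9.44, 9.40 and 9.25 at day 0 and 10.09, 10.09 and 10.20 at day 5. It was higher by 0.31 at day 3 and by 0.76 at day 5 (limma adjusted p = 0.0042 and 1.9e-06), and each day 5 array lay above every other array. B4galt5 and B4galt6, the lactosylceramide synthases, were lower at day 3 (-0.33 and -0.40), B4galt6 also at day 1 (-0.31, limma adjusted p = 0.011, and 0.050 without day 1 replicate 3), and differed from day 0 by -0.05 and -0.07 at day 5 (limma adjusted p = 0.56 and 0.48). Thus the opening enzyme was called higher at day 5, and St3gal5 and St8sia1 were called lower.

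Of the steps after, St8sia5, which adds sialic acid to complex gangliosides, was lower on every day, by -0.43, -0.58 and -0.77 (limma adjusted p = 2.7e-06 at day 5). B4galnt1, the GM2 and GD2 synthase, was called lower only at day 5 among the 3 days (-0.31, limma adjusted p = 0.0026). Its changes at days 1 and 3 were -0.15 and -0.18, with every array below those of day 0. St6galnac6 was also called only at day 5 (-0.30), after -0.11 and 0.11. B3galt4, the GM1 synthase, differed from day 0 by 0.12, 0.00 and 0.13 and was not called. St3gal2, which sialylates ganglioside and globo-series ends, was higher by 0.20 at day 5 (limma adjusted p = 0.014), and this was lost without day 0 replicate 2 (0.056) or day 5 replicate 3 (0.053). St6galnac3 and St6galnac5 were not called against day 0 on any day.

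The lacto and globo branches gave smaller values. B3gnt5, which opens the lacto-series, was higher by 0.42 at day 5 (limma adjusted p = 0.0018). B3galnt1, the globoside synthase, was lower by 0.32 at day 3 and differed by 0.02 at day 5, the day 3 call being lost without day 0 replicate 1 (limma adjusted p = 0.078) or day 3 replicate 2 (0.070). B3galt5, which extends globoside and makes type 1 chains, differed by 0.07, 0.10 and 0.10 and was not called. Over the 15 glycosphingolipid genes the median change was -0.04, -0.16 and -0.05 at days 1, 3 and 5. Over the time course 11 of the 15 changed, or 73.3%, beside 45.6% of all genes.

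**Figure D3:**
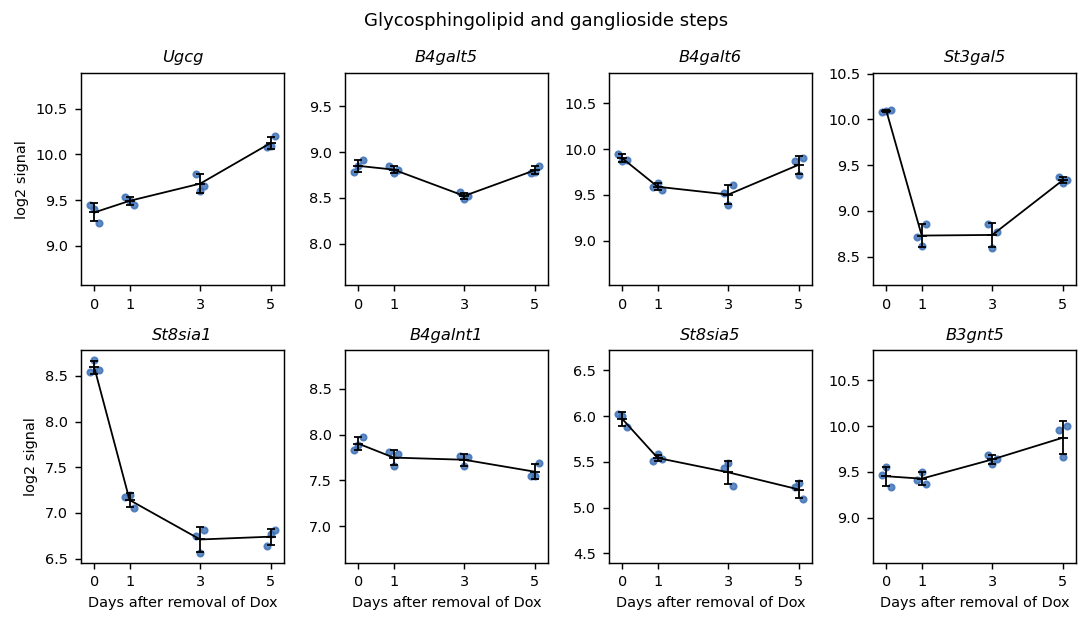
Log2 signal of 8 glycosphingolipid genes against the day (0, 1, 3 or 5) without Dox. Points are arrays, lines join the means of 3 arrays, bars are the SD, and all panels span the same number of log2 units. St3gal5 and St8sia1 drop by more than 1 unit at day 1, St3gal5 is higher at day 5 than at day 3, and Ugcg is highest at day 5.

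O-glycan initiation had the largest measured rise of any member, that of Galnt3 by 2.04. St6gal2 of the antenna group came next, by 1.94 at day 3, and the difference between them was not tested. Galnt3, a polypeptide N-acetylgalactosaminyltransferase known for the glycosylation of Fgf23, read 7.01, 7.15 and 6.96 at day 0, 8.01, 8.06 and 7.99 at day 1, 9.09, 9.12 and 9.04 at day 3, and 9.08, 8.99 and 9.20 at day 5. Day 1 lay apart from and between day 0 and the later days, which overlapped. It was 1.97-fold higher at day 1, 4.11-fold at day 3 and 4.12-fold at day 5 (log2 changes 0.98, 2.04 and 2.04, standard error 0.07, limma adjusted p = 6.0e-10 at day 5).

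Galnt7, which adds to peptides that already carry a sugar, took another course. It read 9.16, 9.30 and 9.12 at day 0, 9.16, 9.15 and 9.08 at day 1, 9.62, 9.41 and 9.45 at day 3, and 10.33, 10.37 and 10.36 at day 5. Days 0 and 1 overlapped, and day 5 stood above every earlier array. The change was -0.07 at day 1 (limma adjusted p = 0.61), 0.30 at day 3 and 1.16 at day 5 (adjusted p = 3.8e-08, limma).

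Galnt1 and Galnt2, widely expressed initiators, joined at day 5. Galnt1 read 10.16, 10.08 and 10.12 at day 0 and 10.83, 10.64 and 10.83 at day 5, a change of 0.65 (limma adjusted p = 3.7e-06), after -0.16 at both earlier days. Galnt2 was lower by 0.32 at day 3 and higher by 0.37 at day 5, both called, and its rise from day 3 to day 5 was 0.69 (limma adjusted p = 3.6e-05). Galnt6, Galnt11, Galnt12 and Galnt14 were also higher at day 5, by 0.22 to 0.51. Galnt6 had been higher by 0.41 at day 1 (limma adjusted p = 0.019) and differed by 0.07 at day 3. Galnt14 was already higher by 0.38 at day 3 (limma adjusted p = 0.018). Its day 5 call was lost without day 0 replicate 2 (limma adjusted p = 0.059) or day 5 replicate 3 (0.070).

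The remaining 11 of 19 initiation genes were not called at day 5, among them Galnt4, Galnt10, Galnt13, Galnt15 and Galntl5. Their day 5 changes ran from -0.16 to 0.19. Galnt10 had been higher by 0.29 at day 1 (limma adjusted p = 0.030). The median over the 19 was -0.01, 0.03 and 0.18 at days 1, 3 and 5. Over the time course 10 of them changed, or 52.6%, near the 45.6% of all genes. Day 5 was the last day, on which the trophectoderm marker sum was highest and the embryonic stem cell marker sum lowest. Whether these go together was not tested. Galntl5 and Galnt11 lie 2574 bases apart on chromosome 5 by the annotation, with day 5 changes of 0.18 and 0.24.

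The Galnt3 promoter is shown as that of the member with the largest measured rise, at chr2:66124744-66125043 on the minus strand of GRCm38.p6.
Galnt3: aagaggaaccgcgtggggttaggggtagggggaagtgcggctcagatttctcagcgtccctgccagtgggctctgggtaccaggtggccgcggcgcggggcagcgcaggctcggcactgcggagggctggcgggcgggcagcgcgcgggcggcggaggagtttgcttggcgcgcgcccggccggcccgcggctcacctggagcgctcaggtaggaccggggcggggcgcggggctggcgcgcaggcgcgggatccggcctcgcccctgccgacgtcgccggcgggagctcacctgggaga
It held no AGGTCA and was 76.7% G and C, with 41 CG dinucleotides in 300 bases.

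Of the 10 O-glycan core genes 3 were higher and 1 lower at day 5, beside 17.4% and 17.6% of all genes. Gcnt4 and Gcnt1, which make core 2 branches, changed by 0.79 and 0.61 at day 5 (limma adjusted p = 1.2e-05 and 1.7e-05). Gcnt4 read 7.25, 7.15 and 7.33 at day 0 and 7.86, 8.18 and 8.06 at day 5, and Gcnt1 9.22, 9.23 and 9.15 at day 0 and 9.67, 9.90 and 9.87 at day 5. In both genes every day 5 array stood above every day 0 array. Gcnt3, a further core branching enzyme, was lower by 0.43 at day 3 and by 0.32 at day 5. The day 5 call of Gcnt3 was lost without day 0 replicate 3 (limma adjusted p = 0.088) or day 5 replicate 2 (0.071).

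St3gal1, which caps core 1 with sialic acid, was higher on all 3 days, by 0.33, 0.31 and 0.41 (limma adjusted p = 1.0e-04 at day 5). Its 2 probe sets differed, with 0.17 and 0.65 at day 5. St6galnac2, which sialylates the core N-acetylgalactosamine, was lower by 0.33 and 0.40 at days 1 and 3 and by 0.16 at day 5, the last not called (limma adjusted p = 0.088). B3gnt3, B3gnt6, St6galnac1, St6galnac4 and St8sia6 were not called against day 0. St6galnac4 and St6galnac6 are neighbours 12 bases apart on chromosome 2, with day 5 changes of -0.08 and -0.30.

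**Figure D4:**
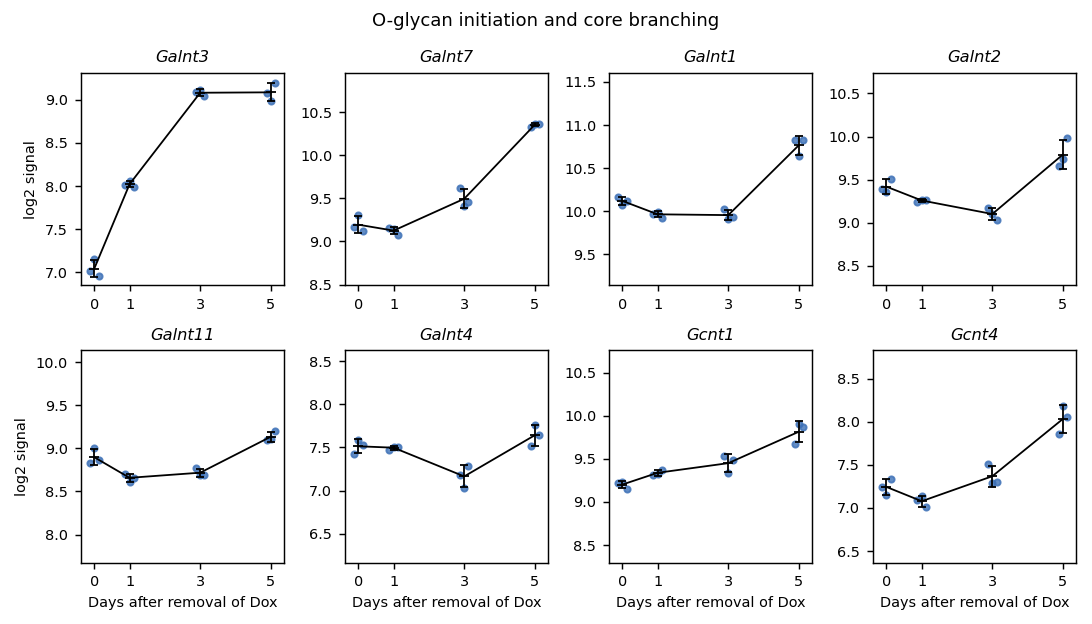
Log2 signal of 8 O-glycan genes against the day (0, 1, 3 or 5) without Dox. Points are arrays, lines join the means of 3 arrays, bars are the SD, and all panels span the same number of log2 units. Galnt3 reaches its day 5 level by day 3, whereas Galnt7, Galnt1, Galnt2, Gcnt1 and Gcnt4 are highest at day 5.

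N-glycan branching held the largest fall of any member. Mgat4c, of the Mgat4 family, read 6.71, 7.03 and 6.75 at day 0, 4.66, 5.14 and 4.69 at day 1, 4.64, 4.63 and 4.53 at day 3, and 4.37, 4.58 and 4.58 at day 5. All day 0 arrays stood far above the rest, and no change between neighbouring later days was called. Its measured log2 changes were -2.0, -2.23 and -2.32 on the 3 days (standard error 0.12, limma adjusted p = 1.7e-08 at day 5). Its mean signal was in the dimmest 25% of genes, as for 14 members, and no detection call was used here, so that no fold is given and these changes may be smaller than the true ones.

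RefSeq gives 4 starts for Mgat4c, and the window of the farthest upstream is shown for the member with the largest fall, at chr10:101681237-101681536 on the plus strand of GRCm38.p6.
Mgat4c: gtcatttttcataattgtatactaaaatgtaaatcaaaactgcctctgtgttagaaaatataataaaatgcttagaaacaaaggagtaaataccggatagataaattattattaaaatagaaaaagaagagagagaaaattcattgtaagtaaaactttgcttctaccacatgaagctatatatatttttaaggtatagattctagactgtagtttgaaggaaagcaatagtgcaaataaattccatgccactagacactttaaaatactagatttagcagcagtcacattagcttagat
Over the 4 windows 27.7% to 49.0% of the bases were G or C, and none held AGGTCA.

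The branching enzymes of general use moved less. Mgat5, which adds the branch that poly-N-acetyllactosamine extends from, read 8.75, 8.63 and 8.67 at day 0 and 8.11, 8.29 and 8.22 at day 5, and was lower by 0.54, 0.52 and 0.48 on the log2 scale at days 1, 3 and 5 (limma adjusted p = 3.2e-05 at day 5). Mgat2, which starts the branch on the other mannose arm, was lower by 0.34 and 0.62 at days 1 and 3 and level with day 0 at day 5 (0.00, limma adjusted p = 0.97). Mgat1, which starts complex N-glycans, was higher by 0.21 at day 5 (limma adjusted p = 0.038), but this call was lost on leaving out any array of day 0, day 1 replicate 1, day 3 replicate 3 or day 5 replicates 1 or 3, with an adjusted p of at most 0.14. Mgat3, which adds the bisecting sugar, changed by -0.23, -0.17 and -0.14 and was not called.

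Fut8, which puts fucose on the N-glycan core, read 9.62, 9.49 and 9.55 at day 0, 9.62, 9.67 and 9.65 at day 1, 9.76, 9.69 and 9.63 at day 3, and 10.37, 10.62 and 10.52 at day 5. Its change was 0.09, 0.14 and 0.95, a 1.93-fold higher level at day 5 (limma adjusted p = 2.0e-07). The family of Mgat4 divided at day 5, with Mgat4a and Mgat4b higher by 0.39 and 0.28 and Mgat4c, Mgat4d and Mgat4e lower. Mgat4f, counted with the other members, differed by -0.25 and was not called. Mgat4d, Mgat4e and Mgat4f were, like Mgat4c, in the dimmest 25% of genes, whereas Mgat4a and Mgat4b were not. Of the called genes, Mgat4d (-0.29) and Mgat4e (-0.18) lost their calls on leaving out day 0 replicates 2 or 3 or day 5 replicates 1 or 3, with a limma adjusted p of at most 0.13 and 0.15. Mgat4e also lost its call on leaving out any array of day 1 or day 3 replicates 2 or 3 (limma adjusted p at most 0.055). The call of Mgat4b was lost without day 0 replicate 1 (0.057) or day 5 replicate 3 (0.066). In all, 8 of the 10 genes changed over the time course, beside 45.6% of all genes.

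The antenna group had 3 genes that rose by at least 1 on the log2 scale, all sialyltransferases. St6gal1, which puts sialic acid on N-acetyllactosamine ends of N-glycans, read 6.75, 7.04 and 7.01 at day 0, 7.34, 7.21 and 7.32 at day 1, 7.87, 7.92 and 7.80 at day 3, and 8.17, 7.83 and 8.15 at day 5. It was higher by 0.36, 0.93 and 1.12, the last 2.17-fold (limma adjusted p = 1.1e-06). All arrays without Dox lay above those with it, and days 3 and 5 overlapped. The day 1 call was lost without day 0 replicate 1 (limma adjusted p = 0.13) or day 1 replicates 1 (0.10) or 3 (0.098).

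St6gal2, its paralog, read 6.03, 5.73 and 5.88 at day 0, 6.48, 6.64 and 6.87 at day 1, 7.58, 7.86 and 8.01 at day 3, and 7.10, 6.85 and 6.91 at day 5. Day 3 stood above every other array, and days 1 and 5 overlapped. The change was 0.79, 1.94 and 1.07, and the fall from day 3 to day 5 was -0.86 (limma adjusted p = 2.2e-04). Both paralogs thus rose to day 3, after which St6gal2 fell and St6gal1 differed by 0.19 (limma adjusted p = 0.19). The difference between them was not tested.

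St3gal6, which sialylates N-acetyllactosamine ends, read 7.75, 7.86 and 7.83 at day 0, 8.15, 8.17 and 8.12 at day 1, 8.45, 8.30 and 8.24 at day 3, and 8.97, 9.37 and 9.24 at day 5. The days followed each other upward with no array of one reaching into the next. It was higher by 0.33, 0.52 and 1.38, or 2.61-fold at day 5 (limma adjusted p = 9.6e-08). The day 1 call was lost on leaving out any of the arrays of days 0 and 1, with a limma adjusted p of at most 0.11.

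B4galt1 and B4galt4, which add the galactose on which those sialic acids sit, were higher by 0.95 and 0.75 at day 5 (limma adjusted p = 1.5e-07 and 1.4e-06). St3gal3 was higher by 0.18 at day 5 and St3gal4 differed by 0.02. The former call was lost without day 0 replicate 2 (limma adjusted p = 0.11), day 5 replicate 1 (0.072) or day 5 replicate 3 (0.099).

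The 4 antenna genes called lower at day 5 were B4galnt4, Gcnt2, B3gnt2 and B3gnt7, and 9 of the 20 were not called. The lower calls were 20% of the group, near the 17.6% of all genes. B4galnt4, which makes the N-acetylgalactosamine-capped antenna, was lower by 0.53, 0.60 and 0.61 on the log2 scale (limma adjusted p = 2.5e-05 at day 5). B4galnt3, which has the same activity, was higher by 0.30 at day 1 and 0.18 at day 5. Gcnt2, which turns linear poly-N-acetyllactosamine into branched I antigen, was lower by 0.33, 0.50 and 0.45 (limma adjusted p = 2.6e-04 at day 5). B3gnt2, the main extender of poly-N-acetyllactosamine, was lower by 0.24, 0.49 and 0.27, and B3gnt7 by 0.38 and 0.28 at days 3 and 5. B4galnt2, of the Sda antigen, was lower by 0.64 and 0.43 at days 1 and 3 and by 0.28 at day 5, where it was not called (limma adjusted p = 0.12). Leaving out an array removed some of these calls. For B4galnt2 at day 3 these were day 0 or day 3 replicates 2 or 3 (limma adjusted p at most 0.081), and for B4galnt3 at day 5 they were day 0 replicates 1 or 3 or day 5 replicates 2 or 3 (at most 0.12). For B3gnt2 at day 1 they were any array of day 1, day 0 replicates 1 or 2, day 3 replicates 1 or 2 or day 5 replicates 1 or 3 (at most 0.17), and at day 5 it was day 0 replicate 1 (0.050). For Gcnt2 at day 1 it was day 1 replicate 3 (0.057).

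Among the 4 fucosyltransferases of terminal fucose only Fut9 was called. Over the time course this was 25% of the group, beside 45.6% of all genes. Fut9, which makes Lewis x in mouse embryonic cells, read 8.68, 8.59 and 8.36 at day 0, 7.83, 7.91 and 7.95 at day 1, 8.28, 8.13 and 8.31 at day 3, and 6.96, 7.07 and 7.18 at day 5. The order was day 0, day 3, day 1 and day 5 from high to low, with no overlap. The change was -0.64, -0.30 and -1.47, or 2.77-fold lower at day 5 (limma adjusted p = 4.2e-08), and the rise of 0.34 from day 1 to day 3 was called (limma adjusted p = 0.013). That rise was lost without day 1 replicate 1 (0.054) or day 3 replicate 3 (0.057), and the day 3 call without day 0 replicate 1 (0.091), day 0 replicate 2 (0.065) or day 3 replicate 2 (0.088). Fut4, the other Lewis x enzyme, read 7.04, 6.91 and 6.82 at day 0 and 7.09, 6.72 and 7.03 at day 5, with overlapping days and a change of 0.03 (limma adjusted p = 0.87). Fut2 and Fut7 were not called on any day.

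All 3 polysialic and oligosialic acid genes changed over the time course, on different days, beside 45.6% of all genes. St8sia4, a polysialyltransferase of the neural cell adhesion molecule, read 5.39, 5.43 and 5.55 at day 0 and 6.30, 6.16 and 6.29 at day 5, higher by 0.79 at day 5 (limma adjusted p = 2.3e-06) after 0.13 and 0.02. St8sia2, the other such enzyme, was higher by 0.33 and 0.26 at days 3 and 5. Its day 5 call was lost without day 0 replicate 1 (limma adjusted p = 0.061), day 0 replicate 2 (0.066) or day 5 replicate 1 (0.089). St8sia3 was higher by 0.66 at day 3 (limma adjusted p = 8.3e-06) and fell by 0.53 from day 3 to day 5.

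**Figure D5:**
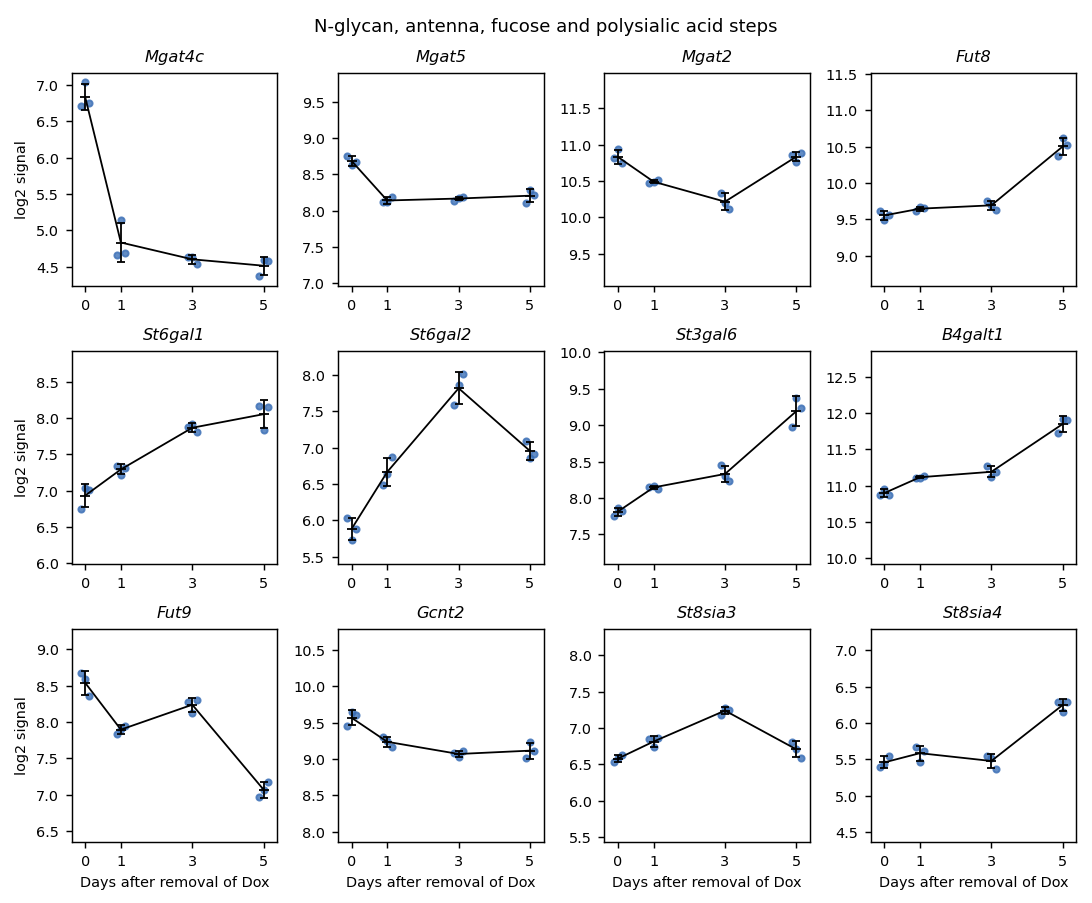
Log2 signal of 12 genes of N-glycan branching, antennae, terminal fucose and polysialic acid against the day (0, 1, 3 or 5) without Dox. Points are arrays, lines join the means of 3 arrays, bars are the SD, and all panels span the same number of log2 units. Mgat4c drops by 2 units at day 1, Fut9 is lowest at day 5, and St6gal2 and St8sia3 are highest at day 3.

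Of the 8 other members, B4galt7, which builds the proteoglycan linker, was higher by 0.32 at day 5 (limma adjusted p = 0.0014) and Fut11 by 0.57 (limma adjusted p = 9.6e-04), with 0.56 and 0.58 from its 2 probe sets. B3galt6, the next linker enzyme, and B3galnt2, of O-mannose glycans, were not called on any day. Fut10 was lower by 0.26 at day 1, a call that was lost on leaving out any array of days 0 and 1, day 3 replicates 2 or 3 or day 5 replicate 3 (limma adjusted p at most 0.17). B3gntl1 and Mgat4f were not called against day 0.

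Beside single comparisons, courses were compared. In 15 of the 89 members a called change over the first 3 days was followed by a called change the other way by day 5, beside 7.39% of all genes. Of these, 11 were lower and then higher, beside 3.03% of all genes, namely B3galnt1, B3gnt2, B4galt5, B4galt6, Galnt2, Galnt4, Galnt11, Mgat2, St3gal4, St3gal5 and St6galnac2. The 4 that were higher and then lower, beside 4.36%, were B3galt1, Mgat5b, St6gal2 and St8sia3. Of the 12 fibroblast markers, 5 were lower at day 3 than at day 0, beside 13.1% of all genes. At day 5, 6 were higher than at day 3, beside 13.0%, and the part of these markers in these courses was not tested. Several of the 15 had small changes. B3galt1 was higher by 0.41 at day 3, Mgat5b, which branches O-mannose glycans, by 0.25, and Galnt4 was lower by 0.35 and St3gal4 by 0.30.

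Of those 15, 6 rested on a call that leaving out an array removed. For Galnt11 the day 3 call (-0.18) was lost on leaving out any array of day 1 or replicates 2 or 3 of day 0 or day 3 (limma adjusted p at most 0.17). For B3gnt2 the later rise (0.22) was lost on leaving out any array of day 5, day 1 replicate 1 or day 3 replicates 1 or 2 (at most 0.15). For B3galt1 the day 3 call was lost without day 0 replicates 2 or 3 or day 3 replicates 1 or 2 (at most 0.087), and the later fall without replicates 1 or 2 of day 3 or day 5 (at most 0.13). For St3gal4 the day 3 call was lost without replicates 1 or 3 of day 0 or day 3 (at most 0.10), and the later rise without day 3 replicate 1 or day 5 replicates 2 or 3 (at most 0.077). For B3galnt1 the later rise was lost without day 3 replicate 2 or day 5 replicate 3 (at most 0.056), beside the day 3 call given above. For St6galnac2 the later rise was lost without day 3 replicates 1 or 3 or day 5 replicate 3 (at most 0.063).

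Called in the same direction on all 3 days were 5 higher genes (Galnt3, St3gal1, St3gal6, St6gal1 and St6gal2) and 9 lower ones (B3gnt2, B4galnt4, Fut9, Gcnt2, Mgat4c, Mgat5, St3gal5, St8sia1 and St8sia5), beside 2.67% and 2.66% of all genes. Called in a direction at day 5 and not at days 1 or 3 were 14 higher and 4 lower, beside 8.4% and 8.43%. A change of at least 1 on the log2 scale with a call was reached by 9 members on any day, 5 higher and 4 lower, beside 2.23% and 1.69% of all genes, and they are those given above with every array: Galnt3, Galnt7, St6gal1, St6gal2 and St3gal6, and St8sia1, St3gal5, Mgat4c and Fut9.

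Genes that supply or precede the transferases were listed as 7 further groups. In N-glycan assembly and trimming 12 of 17 were higher at day 5 and 0 lower, with a median of 0.34, beside 17.4% and 17.6% of all genes and a median of -0.02, after 3 higher and 1 lower at day 1 and 4 and 2 at day 3. Man1a, a Golgi mannosidase that trims the chain before Mgat1, was higher by 1.97 at day 5 and Mogs, which removes the first glucose, by 0.88 (limma adjusted p = 3.6e-08 and 7.8e-07). In ceramide supply 7 of 13 were higher and 1 lower at day 5, beside the same 17.4% and 17.6% of all genes. Among the higher ones were the ceramide synthases Cers4 (0.78) and Cers2 (0.54). The lower gene, named after its value was seen, was the desaturase Degs1 (-0.28). The medians of both lists were highest at day 5, the last day. On that day the trophectoderm marker sum was highest and the embryonic stem cell marker sum lowest. Whether these go together was not tested.

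Of 15 other core and capping enzymes 4 were higher and 2 lower at day 5, where 17.4% and 17.6% of all genes were. Gbgt1, of the Forssman glycolipid, was lower by 1.15 and Pofut2, which puts fucose on thrombospondin repeats, higher by 0.96 (limma adjusted p = 1.2e-07 and 1.3e-07). C1galt1, which makes core 1 on the product of the Galnt enzymes, was higher by 0.58 at day 5 (limma adjusted p = 3.3e-05). A4galt, the Gb3 synthase, was lower by 0.28 at day 3 and differed by -0.10 at day 5 (limma adjusted p = 0.25).

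Sugar supply was divided. For UDP-sugars 4 of 11 were higher and 3 lower at day 5, against the same shares of all genes (17.4% and 17.6%), with Gfpt2, at the entry of the hexosamine pathway, lower by 1.38 and Gnpnat1, later in it, by 0.54 (limma adjusted p = 1.2e-08 and 2.9e-05). For fucose 3 of 6 were higher and 1 lower, beside the same shares, with Gmds at 0.32 and Gfus at -0.29, successive enzymes of GDP-fucose. For sialic acid 1 of 6 was higher and 1 lower, or 16.7% each, near the shares of all genes (17.4% and 17.6%). These were the transporter Slc35a1 at 0.29 and the activating enzyme Cmas at -0.23. Of 11 genes that remove terminal sugars 5 were higher and 2 lower, beside 17.4% and 17.6% of all genes. The lower share, 18.2%, was near that of all genes. Among the higher ones were Psap, the saposin precursor (0.46), and the sialidase Neu1 (0.39). Neu1 had been higher by 0.68 and 0.75 at days 1 and 3. The lower ones, named after their values were seen, were the galactosidases Glb1 (-0.43) and Gla (-0.25).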

How the data were processed

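Transcripts of 12 cultures were measured with Affymetrix Mouse Gene 1.0 ST arrays, 3 biological replicates for each of 4 days. Array normalization by the authors used the Robust Multichip Average (Affymetrix Expression Console), and they deposited a log2 value for each probe set (versions not given in the sources used here). These ran from 1.61 to 14.69, and arrays have no read depth, so that their number limits the precision. Probe sets were named from the platform annotation, of 35557 probe sets 21789 with 1 symbol, 1621 with several and 12147 with none, and, as in the study's methods, the mean of a gene's single-symbol probe sets was taken. Symbols checked against RefSeq (GRCm38.p6) changed in 0 cases.

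All 19938 genes were fitted with limma 3.58.1 (R 4.3.3) with a mean per day, 8 residual and 4.63 prior degrees of freedom, with a Benjamini-Hochberg adjustment across all genes and a threshold of 0.05. The fit was tested on simulated data. The smallest two-sided exact permutation p that 3 arrays against 3 can give is 0.1. Python 3.11.15 with numpy 2.4.6, pandas 2.3.3 and matplotlib 3.10.9 made tables and plots. Members and lists (8 by step, 7 of supplying genes) were chosen with earlier results of these data known. Text names every member that changed by at least 1 on the log2 scale, in each step list the 2 with the smallest adjusted p at day 5 in either direction, in each supplying list the 2 smallest, members that turn, and a set of pathway enzymes whatever their values. Of the listed pathway symbols 9 were not matched. Alternatives were a replicate block, leaving out each array, a trended robust prior, array weights, the brightest or every probe set, a filter on dim genes, quantile or median scaling, only the days compared, and the methods' tests.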

Additional observations from a re-analysis of the deposited data

How the results depend on the processing

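Of 166 calls of members in the 5 comparisons, 115 held under every alternative, other than the methods' tests, in which they were tested. The other 51 were lost under at least 1 of these alternatives, and 0 reversed. The filter on dim genes tested 155 of the 166 calls, and the setting of every probe set 161. At day 1 the methods' t-test with Benjamini-Hochberg adjustment kept 12 of 24 calls and lost 12. With every probe set tested on its own the day 1 count of higher members was 4 rather than 9. In that setting 1091 of all 35557 probe sets were higher, where the main fit had 1286 of 19938 genes. With the methods' t-test at day 1 the count of higher members was 15 unadjusted and 5 after Benjamini-Hochberg adjustment. The count of lower members was 8 rather than 15 after adjustment. Shares of all genes under the t-test were not taken, so that these counts have no background beside them. With the methods' one-way analysis of variance, Bonferroni adjustment and a 2-fold minimum, 6 members passed rather than 58, a stricter rule by construction. These were Fut9, Galnt3, Galnt7, Mgat4c, St3gal5 and St8sia1. Of all 19938 genes 420 passed that rule, rather than 9083. The filter on dim genes left out 14 members, among them Mgat4c, St8sia4 and St8sia5. Signal over background limits their values.

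Leaving out each array in turn gave 5 to 10 higher and 10 to 15 lower members at day 1, 13 to 18 and 17 to 24 at day 3, 23 to 29 and 12 to 15 at day 5, 7 to 14 and 7 to 13 at day 3 against day 1, 23 to 29 and 6 to 9 at day 5 against day 3, and 52 to 58 over the time course. The largest shifts came at day 1 and at day 3 against day 1, as given with those counts. Over all 19938 genes these fits called 734 to 1384 higher and 502 to 971 lower at day 1. They called 2194 to 2799 and 2044 to 2654 at day 3, and 3044 to 3421 and 2949 to 3445 at day 5. Day 3 against day 1 had 1380 to 1935 and 1615 to 2397, and day 5 against day 3 had 2094 to 2659 and 1870 to 2542. The time course had 8149 to 9143.

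The labels do not say whether a replicate number marks a single culture series. The correlation of deviations from the day means was -0.17 to 0.07 for 18 pairs of the same number. It was -0.13 to 0.18 for other pairs of different days. These values show no strong effect shared by a number, but they cannot exclude pairing. With the replicate number as a block, 150 of the 166 calls were kept, 16 lost and 2 gained. The block gave 6 higher and 14 lower members at day 1, 16 and 20 at day 3, and 28 and 15 at day 5. Day 3 against day 1 had 10 and 9, day 5 against day 3 had 26 and 8, and the time course 57. Over all 19938 genes the block gave 1069 higher and 773 lower at day 1, 2502 and 2397 at day 3, and 3332 and 3331 at day 5. Day 3 against day 1 then had 1651 and 2097, day 5 against day 3 had 2445 and 2240, and the time course 8484.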
